A study of Homo sapiens with 12 samples.

Results

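The transcript clusters described here were lower in A375 melanoma cells after interferon-gamma (IFNg) than after DMSO, both in total RNA and in polysomal RNA. A transcript cluster is the array's set of probes for 1 transcribed locus, and its level is given as the log2 of the deposited intensity, so that a difference of 1 is 2-fold. A cluster was taken where its mean level over all 12 arrays was at least 7, where the IFNg mean lay at least 1 below the DMSO mean in each fraction, and where both IFNg arrays lay below both DMSO arrays in each fraction. These conditions held for 199 clusters, called members below, out of 7808 clusters with a mean level of at least 7 (called bright) and 65535 clusters in the table. Members were therefore 2.55% of the bright clusters. The differences between IFNg and DMSO chose the members, so they are described and not tested; counts of calls in these contrasts are given beside their background, and nothing is read from them.

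A375 is an established human melanoma line, and the cells were treated on the day after they were split. The 6 groups of 2 arrays were DMSO for 2 h, IFNg for 24 h, and IFNg for 24 h with silvestrol for 2 h, each measured as total RNA and as polysome-associated RNA on Affymetrix arrays. All 6 groups are the same line with no genetic change stated, no vehicle is named for IFNg, and no group received silvestrol without IFNg, so IFNg and DMSO differ in agent and in hours of treatment, which cannot be told apart. The labels do not say that the arrays of a group came from separate cultures, so p-values measure only the spread between these samples, which may be technical.

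IFNg binds a cell surface receptor and signals through JAK kinases, and many immune genes with the promoter sites called GAS rise; other genes are repressed, among them Myc in mouse fibroblasts. Polysomal RNA is the RNA bound by several ribosomes, and silvestrol inhibits eIF4A, the RNA helicase that prepares the 5′ end of mRNA for ribosome loading. In melanoma cells MITF is the transcription factor of the pigment cell lineage, and PPARGC1A, a coactivator that raises mitochondrial genes, is one of its known targets.

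Gene symbols were available for part of the table. Of the 199 members, 163 carried 1 gene symbol, 5 carried several and 31 carried none, and names below are used only for the first kind. By Entrez ID 150 of these genes matched RefSeq; the others, such as RPS7P15 and LSM3P3, include pseudogenes, so no shares by gene type are given. Several members share a locus or a sequence and are not separate evidence: MICOS10, NBL1 and the read-through transcript MICOS10-NBL1 overlap, MINOS1P3 is a pseudogene of MICOS10, VDAC1P4 of VDAC1, and LYPLA1P3 of LYPLA1. The table holds chromosomes 1 to 8 and, of chromosome 9, 1729 clusters; members were 1.94% (chromosome 9) to 3.47% (chromosome 4) of the bright clusters of each. Of 12 melanoma markers, 3 had a cluster in these rows: MITF was bright with a mean level of 13.15, while MLANA (5.89) and TYRP1 (5.35) lay below the bound of 7.

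The promoters of the member with the largest difference, PPARGC1A, of MITF and of the retinoic acid receptor gene RARB are shown as examples of the motifs searched. Each is the 250 bases before an annotated start in RefSeq on GRCh38.p14, 5′ to 3′ on the gene's strand, with the motif in capitals. PPARGC1A has 2 starts, at chr4:24472906-24473155 (minus strand, E-box CACGTG) and chr4:23881102-23881351 (minus strand, CATGTG). The window of the third listed start of MITF, at chr3:69936342-69936591 (plus strand), holds the cyclic AMP response element TGACGTCA. The window of RARB at chr3:25428013-25428262 (plus strand) holds the GAS pattern TTCNNNGAA, which is also in the window of the fourth listed start.
PPARGC1A start 1: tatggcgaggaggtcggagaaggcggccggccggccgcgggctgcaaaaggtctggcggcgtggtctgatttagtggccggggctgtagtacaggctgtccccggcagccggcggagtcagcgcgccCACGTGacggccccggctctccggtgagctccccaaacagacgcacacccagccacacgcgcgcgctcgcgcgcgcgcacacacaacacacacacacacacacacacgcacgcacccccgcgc
PPARGC1A start 2: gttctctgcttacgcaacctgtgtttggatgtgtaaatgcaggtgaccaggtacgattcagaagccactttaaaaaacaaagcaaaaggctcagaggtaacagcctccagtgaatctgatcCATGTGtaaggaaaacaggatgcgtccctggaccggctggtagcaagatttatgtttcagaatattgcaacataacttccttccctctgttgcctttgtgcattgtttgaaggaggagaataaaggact
MITF start 3: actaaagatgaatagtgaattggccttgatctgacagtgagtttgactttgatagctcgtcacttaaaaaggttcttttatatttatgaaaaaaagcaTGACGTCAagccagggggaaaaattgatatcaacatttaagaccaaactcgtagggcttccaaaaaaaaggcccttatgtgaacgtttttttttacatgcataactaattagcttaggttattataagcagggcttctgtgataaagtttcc
RARB start 1: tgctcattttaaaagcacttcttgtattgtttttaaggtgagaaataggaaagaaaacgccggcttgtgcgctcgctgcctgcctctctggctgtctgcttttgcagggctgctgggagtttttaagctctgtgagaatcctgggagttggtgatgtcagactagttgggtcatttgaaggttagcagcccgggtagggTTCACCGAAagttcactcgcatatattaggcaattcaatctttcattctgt
Windows of this kind were found for 121 member genes, 196 windows in all, against 5042 windows of bright genes and 35116 windows of all genes in the reference table; MYC, CA8, NEFL and SDC2 are among the members not searched. On either strand, CACGTG was in 7.14% of member windows, 8.39% of bright and 6.34% of all windows. CATGTG, the core of the M-box bound by MITF, was in 7.14%, 6.72% and 9.42%. TTCNNNGAA was in 7.14%, 5.67% and 6.57%. The letters TGACGTCA, searched after the MITF sequence had been read, were in 2.04%, 2.70% and 1.65%. Behind the member shares are 14 windows for each of the first 3 motifs and 4 for the last. CACGTG and TGACGTCA read the same on both strands, matches of different motifs in 1 window were each counted, and a match is letters in the window and not a binding site.

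Members ranged in mean level from 7.03 to 16.14, with a median of 10.15 against 9.82 for all bright clusters. Their median difference, IFNg minus DMSO, was -1.24 in total RNA and -1.77 in polysomal RNA, against -0.10 and -0.44 over the bright clusters. Ranked by the smaller of both differences, 9 members were lower by at least 2 (4-fold) in both fractions, 23 by 1.5 to 2, and 167 by 1 to 1.5. The polysomal difference lay below that in total RNA for 162 members (81.4%, against 71.3% of bright clusters) and not for 37. The median of this comparison over the members changed sign under 3 normalizations, as given below. In the limma fit over all clusters, an adjusted p below 0.05 was reached as lower by 126 of the 199 members in polysomal RNA (background 1.93% of all clusters and 13.4% of bright clusters) and by 8 in total RNA (0.0244% and 0.102%). The rule chose the members on these arrays, so the counts follow from the choice. The count of 8 was 2 without the first total DMSO array or without the first total IFNg array, 3 without the second total IFNg array or either silvestrol array of total RNA, 4 without either polysomal DMSO array, and 18 without the second total DMSO array. A difference of at least 1 with no overlap between arrays, which every member has by the rule, was met by 3.5% of bright clusters in total RNA and 26% in polysomal RNA. In bulk RNA a lower level in each cell and fewer cells with the transcript cannot be told apart.

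**Figure D1:**
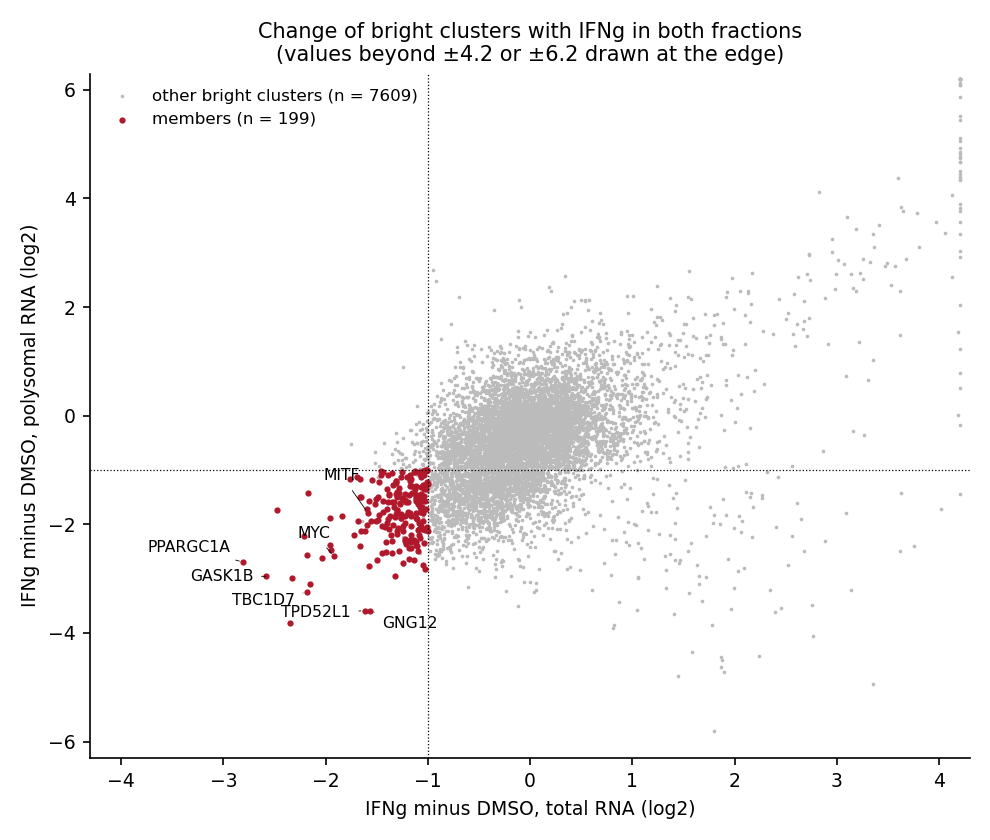
Each point is a bright cluster, placed by its IFNg minus DMSO difference (log2) in total RNA (horizontal) and in polysomal RNA (vertical), with the 199 members in red and the rule's bounds of -1 as dotted lines. Members reach -2.80 in total RNA and -3.82 in polysomal RNA, and values beyond the axes are drawn at the edge.

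Array by array, the members did not stand equally high on both DMSO arrays of total RNA. The median level of members was 11.34 on the first DMSO array of total RNA and 10.70 on the second, and 9.76 and 9.72 on the IFNg arrays. In polysomal RNA these medians were 10.94 and 11.18 with DMSO and 9.14 and 9.34 with IFNg. Of the 199 members, 161 were higher on the first than on the second total DMSO array, which held for 58% of bright clusters. Bright clusters as a whole had medians of 10.04 and 9.88 on those arrays, and their medians were lowest on the polysomal IFNg arrays, at 9.44 and 9.52. Without the first total DMSO array 135 clusters met the rule, 98 of them members, and without the second 582 did. Leaving out the first or the second IFNg array of total RNA gave 270 and 336 clusters. Counts under 3 normalizations and with each array left out are given below. How far single arrays and the dimmer polysomal IFNg arrays set the membership was not tested beyond such counts.

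**Figure D2:**
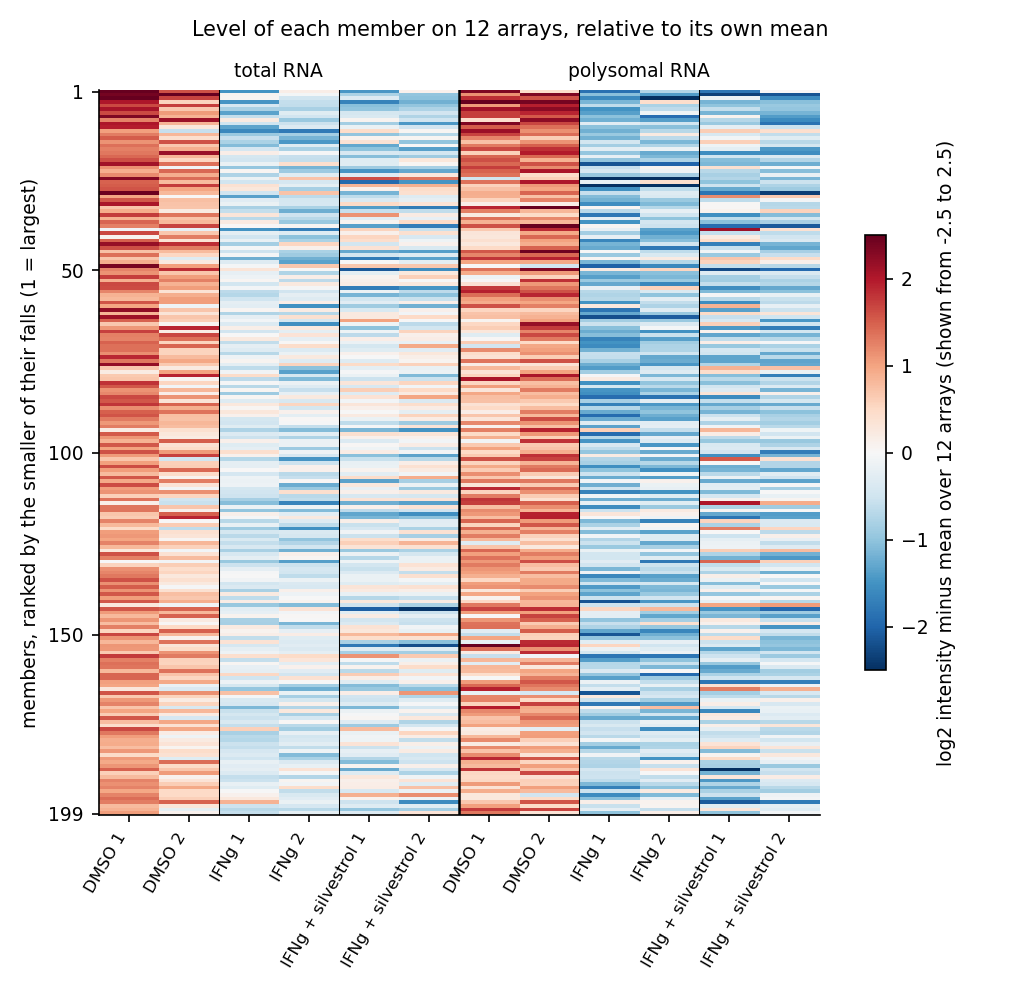
Rows are the 199 members in order of the smaller of both differences and columns are the 12 arrays; colour is the log2 intensity minus the row's mean over 12 arrays. DMSO arrays are red by the rule, the first total DMSO array more so than the second (medians 11.34 and 10.70), and the medians with silvestrol (9.60 to 9.82) lie nearer to those with IFNg (9.14 to 9.76) than to those with DMSO (10.70 to 11.34).

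Membership that did not hang on 1 array or on the scale was narrower. Under 16 other settings (3 normalizations, 16 added to each intensity, and 12 fits that each leave out 1 array), 45 members met the rule every time. They included all 21 members with the largest differences and also MITF. Across the 12 settings that leave out an array 53 members met the rule throughout, and across the 3 normalizations 102 did. The rule's edge was crowded: 61 members lay between 1 and 1.1 in the smaller of their differences, and 100 bright clusters without overlap lay between 0.9 and 1. VDAC1, which codes for the main channel of the outer mitochondrial membrane, was just inside at -1.01 in total and -1.0 in polysomal RNA. GSTM4 was also just inside, at -1.0 in total RNA, and COQ3 and CNBP, each at -0.999 in total RNA, were just outside.

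PPARGC1A ranked first. In total RNA PPARGC1A read 14.35 and 13.25 with DMSO, 10.16 and 11.83 with IFNg, and 10.21 and 11.77 with silvestrol added. In polysomal RNA PPARGC1A read 13.99 and 12.13, then 9.80 and 10.92, then 9.85 and 11.68. Groups did not overlap between DMSO and either IFNg treatment, but arrays of 1 group differed by more than 1 in every group. PPARGC1A was 6.98-fold lower in total RNA (log2 -2.80, SE 0.79) and 6.49-fold lower in polysomal RNA.

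MITF ranked 24th. In total RNA MITF read 14.33 and 14.06 with DMSO, 12.38 and 12.84 with IFNg, and 12.83 and 13.40 with silvestrol added. In polysomal RNA MITF read 14.50 and 13.61, then 12.19 and 12.32, then 12.33 and 12.96. The DMSO arrays were the 2 highest in each fraction, 1 silvestrol array of total RNA lay between the IFNg arrays, and the other 3 silvestrol arrays lay above the IFNg arrays of their fraction. The difference was 3.0-fold in total RNA (log2 -1.58, SE 0.35) and 3.48-fold in polysomal RNA (log2 -1.80). MITF is 1 of 4 genes with a cluster on a list of 10 pigment cell genes, and the only bright one.

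MYC, which codes for a transcription factor that drives growth, ranked 12th. In total RNA MYC read 11.02 and 9.43 with DMSO, 8.38 and 8.24 with IFNg, and 10.46 and 10.04 with silvestrol added. In polysomal RNA MYC read 12.14 and 11.15, then 8.79 and 9.31, then 10.61 and 10.41. Silvestrol arrays lay above both IFNg arrays in each fraction; in total RNA they lay between the DMSO arrays and in polysomal RNA below them. IFNg differed from DMSO by -1.92 in total RNA (SE 0.45) and by -2.59 in polysomal RNA. Silvestrol with IFNg differed from IFNg alone by 1.94 in total RNA (adjusted p = 0.330 in limma) and by 1.46 in polysomal RNA (adjusted p = 0.178), and both contrasts share the IFNg arrays with the rule. MYC was the only member on a list of 10 immediate early genes, 8 of which had a bright cluster. Over these 8 clusters the median difference was 0.87 in total RNA and -0.35 in polysomal RNA. Below 0 lay 3 and 4 of them, against 57.8% and 73.1% of bright clusters.

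RXRG and RARB, both in the first 20, code for retinoid receptors. RXRG, the gamma retinoid X receptor, read 13.61 and 13.03 in total RNA with DMSO, 10.62 and 11.65 with IFNg, and 11.52 and 11.47 with silvestrol added. In polysomal RNA RXRG read 13.69 and 13.86, then 10.59 and 11.84, then 10.80 and 10.79. Its difference was -2.18 in total RNA (SE 0.41) and -2.56 in polysomal RNA. RARB, the beta retinoic acid receptor, read 9.22 and 8.15 in total RNA with DMSO and 7.12 and 7.0 with IFNg. In polysomal RNA RARB read 9.22 and 8.48 with DMSO and 6.61 and 6.84 with IFNg, a difference of -2.13 there and of -1.62 in total RNA.

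GHR, IL6R and CAV1, also in the first 20, code for membrane proteins. GHR, the growth hormone receptor, which signals through JAK2, read 14.29 and 15.12 in total RNA with DMSO, 13.14 and 12.94 with IFNg, and 12.58 and 12.52 with silvestrol added. In polysomal RNA GHR read 13.56 and 14.95, then 12 and 11.72, then 11.41 and 11.42, so the silvestrol arrays were the lowest in each fraction. IL6R, the receptor subunit that binds interleukin-6, read 9.85 and 9.49 in total RNA with DMSO, 8.17 and 7.80 with IFNg, and 7.58 and 7.23 with silvestrol added. In polysomal RNA IL6R read 10.24 and 10.42, then 8.33 and 8.44, then 8.35 and 7.16. IFNg differed from DMSO in polysomal RNA by -2.40 for GHR and by -1.95 for IL6R, and in total RNA by -1.66 and -1.68. CAV1, the coat protein of caveolae, differed by -2.03 in total RNA and by -2.62 in polysomal RNA, with DMSO arrays at 12.01 and 12.92 and IFNg arrays at 11.01 and 9.85 in total RNA.

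GASK1B, named as a Golgi-associated kinase, ranked second, and its arrays within a treatment lay closer together than those of PPARGC1A. In total RNA GASK1B read 13.97 and 14.37 with DMSO, 11.64 and 11.52 with IFNg, and 10.78 and 10.59 with silvestrol added. In polysomal RNA GASK1B read 12.71 and 13.91, then 10.52 and 10.18, then 9.24 and 9.42. Arrays of each treatment stayed together, with silvestrol the lowest in both fractions. The difference from DMSO was 6.0-fold in total RNA (log2 -2.59, SE 0.35) and 7.77-fold in polysomal RNA (log2 -2.96). TBC1D7, a subunit of the TSC complex that restrains mTORC1, read 12.28 and 10.89 in total RNA with DMSO against 9.40 and 9.41 with IFNg (log2 -2.18). In polysomal RNA TBC1D7 read 12.32 and 12.47 against 8.72 and 9.56 (log2 -3.25). CA8, a relative of carbonic anhydrases that lacks their activity, read 8.55 and 8.10 in total RNA with DMSO against 6.33 and 6.41 with IFNg (log2 -1.96). TPD52L1, named after its values were seen, differed by -1.61 in total RNA and by -3.59 in polysomal RNA.

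The other named members in the first 20 had differences from DMSO of -1.66 to -2.47 in total RNA and of -1.73 to -3.09 in polysomal RNA. QDPR, the reductase that recycles tetrahydrobiopterin, the cofactor of aromatic amino acid hydroxylases, read 11.98 and 10.50 in total RNA with DMSO and 8.47 and 9.35 with IFNg. Its polysomal values were 12.84 and 12.34 with DMSO and 8.80 and 10.39 with IFNg (log2 -2.99). ELFN1-AS1, a long noncoding RNA, differed by -2.15 in total and -3.09 in polysomal RNA. The ubiquitin ligase gene RNF144A differed by -1.95 and -2.48, and ZNF330, which codes for a zinc finger protein, by -1.84 in both. LONRF2, a RING finger protein gene, was lower by more in total RNA (-2.47) than in polysomal RNA (-1.73). FAM162A, known as a hypoxia-responsive mitochondrial protein, differed by -1.72 and -2.19, and NEFL, the light neurofilament subunit, by -1.66 and -2.12.

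**Figure D3:**
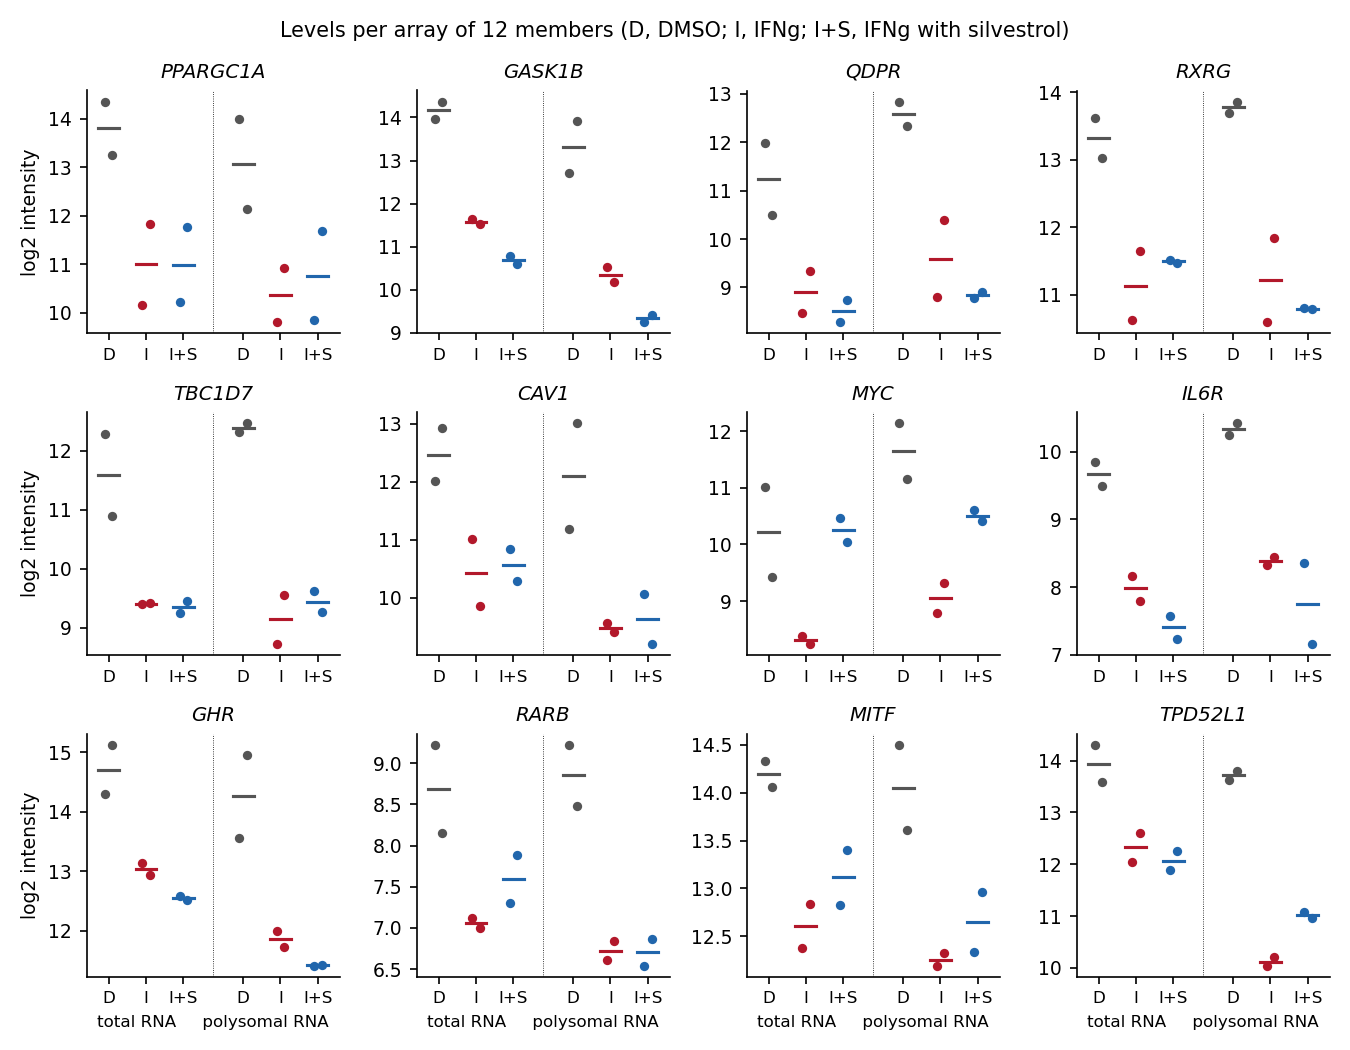
Points are the 2 arrays of each group and bars their means, as log2 intensity on a separate scale for each of 12 members; D is DMSO, I is IFNg and I+S is IFNg with silvestrol, total RNA on the left of each panel and polysomal RNA on the right. In MYC the silvestrol points lie above the IFNg points (10.46 and 10.04 against 8.38 and 8.24 in total RNA), and in GASK1B and GHR they lie below.

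Gene lists for other processes held no member. The lists were MAPK feedback (5 bright clusters), DNA replication (8), mitosis (12), cholesterol synthesis (4) and matrix genes (3). None of their clusters passed as lower in either fraction. Of bright clusters 2.55% were members, and 0.102% in total RNA and 13.4% in polysomal RNA passed as lower. With lists this small, nothing is read from the absence of members. Matrix clusters passed as higher in 1 case in total RNA and 2 in polysomal RNA, against 0.287% and 0.478% of all clusters. Replication-dependent histones of chromosome 6 had 44 bright clusters and no member: their median difference was -0.12 in total RNA and -1.67 in polysomal RNA, where 18 had an adjusted p below 0.05 as lower, against the 13.4% of bright clusters given above.

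Mitochondrial genes were looked at after the members' symbols had been read, so their shares are a description. Of all bright clusters 2.55% were members and 13.4% passed as lower in polysomal RNA, which is the background for every family here. Each share of members rests on 1 to 3 clusters. Proteins of the mitochondrial ribosome (symbols MRPS and MRPL) had 36 bright clusters, 3 of them members (8.33%): MRPS25, MRPS24 and MRPL15. Their median difference over the 36 clusters was -0.63 in total RNA and -1.23 in polysomal RNA, 31 and 36 lay below 0 (57.8% and 73.1% of bright clusters did), and 17 passed as lower in polysomal RNA (13.4% of bright clusters did) and 0 in total RNA (0.102%). Subunits and assembly factors of respiratory complex I (NDUF) had 16 bright clusters, 3 of them members (18.8%): NDUFS4, NDUFA5 and NDUFAF2. Their medians were -0.75 and -1.29, 15 and 16 lay below 0, and 5 passed in polysomal RNA and 0 in total RNA. Symbols starting with RPL or RPS, which include those of cytosolic ribosomal proteins, had 29 bright clusters, 1 of them a member (RPL26L1, 3.45%). Their medians were -0.30 and -1.16, and 15 were called in polysomal RNA. Those starting with PSM, which include proteasome subunits, had 16 bright clusters and 1 member (PSMG3, 6.25%). Their medians were -0.50 and -0.46, and 2 were called in polysomal RNA. Proteins of import across the inner membrane (TIMM) had 2 bright clusters, 1 of them a member. MRPS25, the first of these 6 in rank, read 11.40 and 10.20 in total RNA with DMSO, 9.30 and 9.10 with IFNg and 9.37 and 9.43 with silvestrol added, and IFNg differed from DMSO in polysomal RNA by -1.71.

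The difference between fractions in the response to IFNg was taken as the interaction contrast. It is built from the arrays that chose the members by a fall of at least 1 in both fractions. Its values therefore describe the members, and nothing is read from their shares. None of the 199 passed it in limma; at an unadjusted p under 0.05, 26 members (13.1%) had a larger difference in polysomal RNA and 0 in total RNA, against 17.8% of bright clusters for the former. Over all clusters 0.160% passed as lower in polysomal RNA and 0.0107% as higher, and over bright clusters 0.935% and 0.0384%. The median over members was -0.43 and over bright clusters -0.39. GNG12, a G protein gamma subunit named after its values were seen, read 14.81 and 15.05 in total RNA with DMSO against 13.68 and 13.05 with IFNg, and 13.87 and 14.37 in polysomal RNA against 10.80 and 10.26. The median over members turned to between 0.03 and 0.05 under the 3 normalizations.

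How far the difference returns in arrays that did not choose a cluster was described by applying the rule to the arrays of 1 replicate number and reading the other. Each IFNg array was set against the DMSO array of its number, although the labels do not say that the numbers pair samples. Chosen on the arrays numbered 1, 800 clusters were lower by at least 1 in both fractions, and on the arrays numbered 2 their medians were -0.17 in total RNA and -1.47 in polysomal RNA, against 0.01 and -0.50 for all bright clusters. Of the 800, 62 (7.75%) were again lower by at least 1 in both fractions, against 2.66% of bright clusters. Chosen on the arrays numbered 2, 208 clusters qualified, with medians on the arrays numbered 1 of -0.65 in total RNA and -0.98 in polysomal RNA, against -0.21 and -0.41 for bright clusters. Of the 208, the same 62 (29.8%) qualified again, against 10.2% of bright clusters. Both shares come from this 1 overlap, and each background is the size of the other choice. The second direction therefore adds nothing to the first. In polysomal RNA alone, 70.9% of the first choice and 49% of the second were lower by at least 1 again, against 31.6% and 25.8% of bright clusters. In total RNA alone these shares were 10.5% and 33.7%, against 5.72% and 14.6%.

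**Figure D4:**
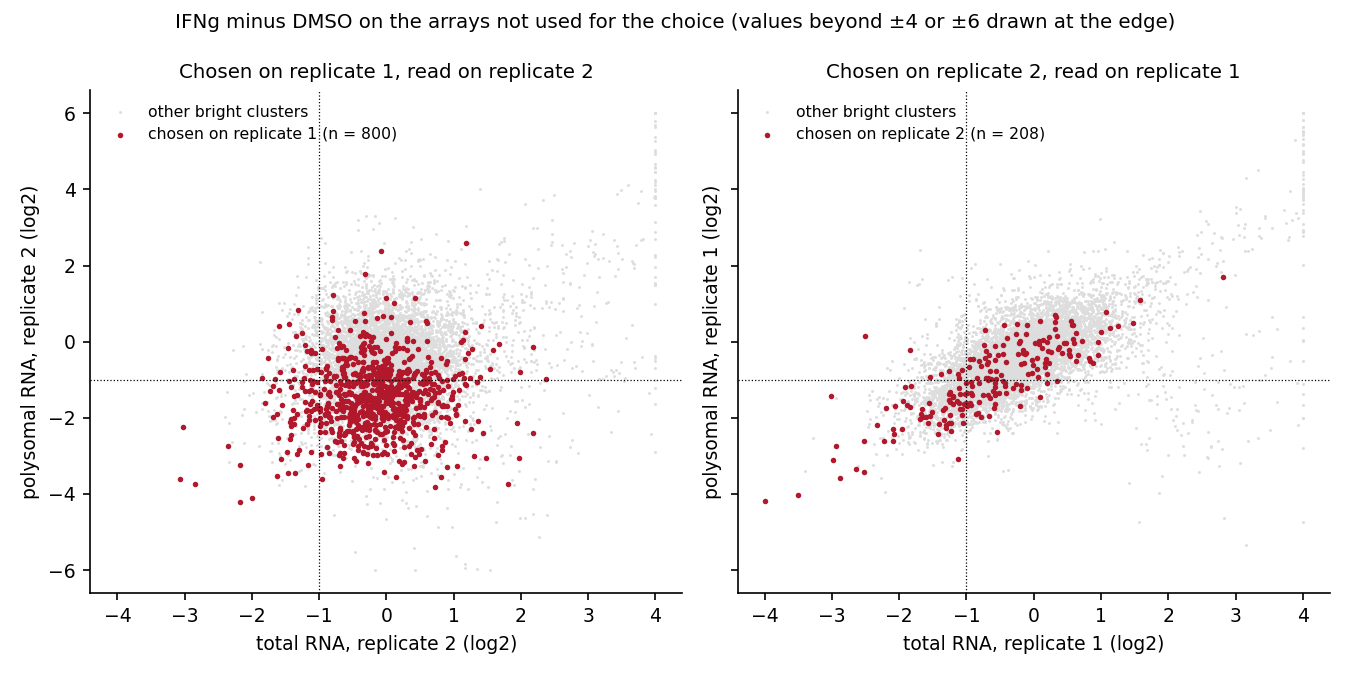
Bright clusters by their IFNg minus DMSO difference (log2) in total RNA (horizontal) and polysomal RNA (vertical) on the arrays of 1 number; red points were chosen on the arrays of the other number. Red points centre at -0.17 and -1.47 on the left and at -0.65 and -0.98 on the right. The lower left corner beyond the dotted lines holds the same 62 red clusters in each panel.

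With silvestrol added, the position of members against DMSO follows in part from the choice, which used the same DMSO arrays. Both silvestrol arrays lay below both DMSO arrays for 172 members in total RNA (86.4%, against 30.5% of bright clusters) and for 181 in polysomal RNA (91%, against 38.8%). No member lay above both DMSO arrays, which 24.4% and 20% of bright clusters did. Median differences from DMSO were -1.04 in total and -1.43 in polysomal RNA, and 37 and 81 members passed as lower (background 0.179% and 0.914% of all clusters, 1.33% and 6.58% of bright clusters). These comparisons share the DMSO arrays with the rule, so nothing is read from the counts. Against IFNg alone, both silvestrol arrays lay above both IFNg arrays for 66 members in total RNA (33.2%, against 23.1% of bright clusters) and for 79 in polysomal RNA (39.7%, against 41.5%). They lay below for 34 (17.1%, against 18.3%) and 39 (19.6%, against 20.8%). These comparisons share the IFNg arrays with the rule.

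In polysomal RNA 9 members (4.52%) passed as higher with silvestrol than with IFNg alone, against a background of 1.09% of all clusters and 6.83% of bright clusters. As lower, 8 (4.02%) passed, against 0.301% and 1.99%. In total RNA 1 (0.503%) passed as lower, against 0.0153% and 0.128%, and 0 as higher, against 0.0412% and 0.307%. Nothing is read from these counts, since the rule used the IFNg arrays. The genes are named after their values were seen, and those that passed as lower are not all named. Nothing is read from what the named genes share. P3H2, a collagen prolyl hydroxylase, passed as lower in both fractions. In total RNA P3H2 read 12.83 and 12.73 with DMSO, 11.01 and 11.63 with IFNg, and 9.24 and 8.85 with silvestrol added (log2 -2.28 against IFNg, adjusted p = 0.0169 in limma). In polysomal RNA P3H2 read 12.97 and 13.12, then 11.81 and 12.09, then 9.80 and 9.31 (log2 -2.40, adjusted p = 0.00210). The other 7 lower in polysomal RNA included the cell surface proteins SDC2 (syndecan-2, log2 -2.47), ROR1 (a receptor of the receptor tyrosine kinase family, -1.32) and SEMA5A (a semaphorin, -1.60), and the secreted ligand BMP6 (-1.77). GNG12 was the largest of the 9 that were higher: its polysomal arrays read 10.80 and 10.26 with IFNg and 12.77 and 12.53 with silvestrol added (log2 2.12, adjusted p = 0.00483 in limma), still below DMSO at 13.87 and 14.37. The other 8 were NUDCD2, NDUFS4, MRPS24, AKR7A2, MRTO4, MRPL15, UROD and PTTG1.

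The 1 comparison whose arrays the rule used only for the mean level is polysomal minus total RNA under IFNg with silvestrol. Members did not stand apart in it: their median was -0.33 against -0.22 for bright clusters, 5 passed as higher on polysomes (background 0.497% of all clusters and 3.12% of bright clusters) and 6 as lower (0.650% and 4.25%). Both polysomal arrays lay above both total arrays for 41 members (20.6%, against 25.6% of bright clusters) and below for 99 (49.7%, against 43.4%).

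The 5 members higher on polysomes were AKR7A2, UROD, SUCLG1, MRPL15 and FAHD2A. AKR7A2, an aldehyde reductase, read 9.61 and 9.47 in total RNA and 12.84 and 11.76 in polysomal RNA with silvestrol (log2 2.76, SE 0.37, adjusted p = 0.00899 in limma). UROD, an enzyme of heme synthesis, read 10.55 and 10.46 against 12.78 and 12.40 (2.09, SE 0.33, adjusted p = 0.0139 in limma). SUCLG1, a subunit of succinyl-CoA ligase in the citric acid cycle, read 11.89 and 12.04 against 13.45 and 13.62 (1.57, SE 0.27, adjusted p = 0.0180 in limma). MRPL15, of the large subunit of the mitochondrial ribosome, differed by 1.69 (SE 0.26, adjusted p = 0.0129 in limma), and FAHD2A, of the fumarylacetoacetate hydrolase family, by 2.13 (SE 0.31, adjusted p = 0.0121). All 5 also lay higher on both polysomal than on both total arrays with DMSO and with IFNg alone: AKR7A2 read 11 and 10.26 in total RNA against 12.55 and 12.31 in polysomal RNA with DMSO.

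Among the 6 members lower on polysomes, CNOT7, a deadenylase of the CCR4-NOT complex, read 12.61 and 12.75 in total RNA and 11.03 and 11.05 in polysomal RNA with silvestrol (log2 -1.64, SE 0.25, adjusted p = 0.0125 in limma). TPD52, a protein linked to vesicle trafficking, read 12.34 and 12.96 against 10.40 and 11.22 (-1.84, SE 0.32, adjusted p = 0.0193 in limma). The pseudogene ATP6V1E1P1 differed by -1.68 (adjusted p = 0.0149 in limma), and clusters without a symbol on chromosomes 9 and 5 by -2.41 and -1.60 (adjusted p = 0.0174 and 0.0206). GNG12 was the sixth (-1.51, adjusted p = 0.0314 in limma). Except for ATP6V1E1P1, these members lay lower on both polysomal than on both total arrays in all 3 treatments. The calls rest on 4 arrays: none of the 11 remained without either total silvestrol array or without the first polysomal one, 3 higher and 2 lower were called without the second, and 0 were called when only these 4 arrays were fitted.

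**Figure D5:**
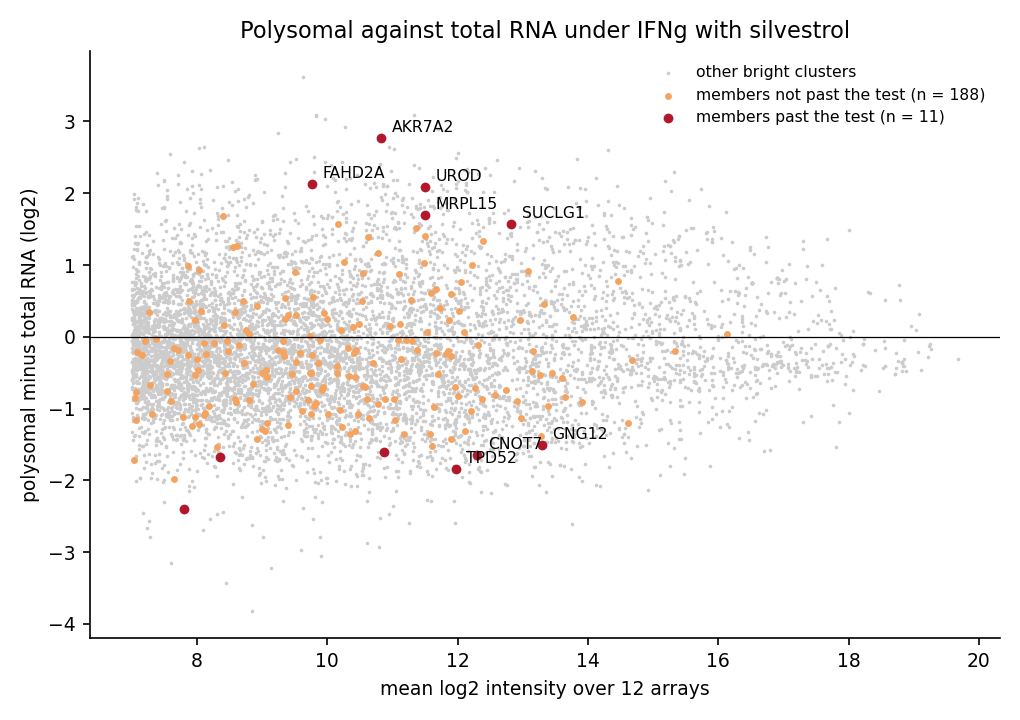
Polysomal minus total RNA (log2) under IFNg with silvestrol against the mean log2 intensity over 12 arrays, for bright clusters in grey, 188 members that did not pass the test in orange and 11 that passed in dark red. Members spread on both sides of 0 (median -0.33), with AKR7A2 highest at 2.76 and a chromosome 9 cluster lowest at -2.41.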

How the data were processed

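The deposited table gives an intensity, on a linear scale, for every transcript cluster on every array; per the labels' protocols, Trizol extracts were labelled with biotin for Affymetrix arrays. The sources used here do not give the software, background correction or normalization. Array medians lay between 17.7 and 18.9, and no detection call accompanies the values. Chromosomes are those of the identifiers, and names come from the platform annotation, updated through RefSeq by Entrez ID. Clusters outside these rows were not analysed here.

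Log2 was taken with no pseudocount. With limma (version 3.58.1, R version 4.3.3), lmFit and eBayes estimated 1 mean for each group from all 12 arrays, with 6 residual degrees of freedom and a prior worth 6.72. Adjusted p-values are Benjamini-Hochberg values over 65535 clusters. Precision is limited by the number of arrays.

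Members, gene lists and the families of mitochondrial genes were chosen with earlier results of these data known. Genes named are the 20 members with the largest smaller difference, members on a list, and the 5 of lowest p in each direction of polysomal minus total RNA under silvestrol. Others are named after their values were seen. Motifs were searched in RefSeq promoter windows of GRCh38.p14. Alternatives were a replicate block, a random block for treatment and number, fitting the compared arrays alone, a trend of variance with intensity, 3 normalizations, 16 added to each intensity, bright clusters alone, other bounds of the rule and leaving out each array.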

Additional observations from a re-analysis of the deposited data

How the results depend on the processing

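Quantile normalization over all 12 arrays left 131 clusters that met the rule, quantile normalization within each fraction 131, and centring on the bright clusters 104; bounds of 0.5 and 1.5 on the difference gave 938 and 32. Over the 199 members, the polysomal median of IFNg minus DMSO was -1.25, -1.26 and -1.23 under these 3 normalizations, and both quantile normalizations left 52 members called lower and centring 103. The median of polysomal minus total RNA under silvestrol was -0.16 with quantile normalization over all arrays and -0.13 with centring. In IFNg alone this median became 0.05, -0.12 and 0.06, and the median difference between fractions in the IFNg response turned to 0.05, 0.04 and 0.03. The cause was not tested.

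Silvestrol with IFNg against IFNg alone gave medians in total RNA of 0.12 with quantile normalization over all arrays and 0.09 with centring, and in polysomal RNA of 0.07, 0.08 and 0.04. In polysomal RNA 5, 5 and 4 members were then called higher. With 16 added to each intensity 5 were called lower and 5 higher, with an intensity trend and robust variances 4 and 5, and with only the arrays compared 3 and 2. Against DMSO the polysomal median was -1.19, -1.21 and -1.16. For clusters chosen on the arrays numbered 1, 10.6% met both bounds again after centring, and for those chosen on the arrays numbered 2, 23.5%, 23.3% and 21.2% did.

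With only bright clusters tested, fewer p-values are adjusted together: 30 members were called lower with IFNg in total RNA, 19 lower and 12 higher on polysomes under silvestrol, 2 lower with silvestrol against IFNg in total RNA and 22 higher in polysomal RNA, and 127 lower with silvestrol against DMSO in polysomal RNA. In total RNA 3 members were called lower with IFNg under the intensity trend, and 3 in the fit of only the arrays compared, which has fewer arrays. That fit called 0 members lower and 0 higher on polysomes under silvestrol and 0 lower with silvestrol against IFNg in total RNA. The random block for treatment and number called 12 lower on polysomes under silvestrol.

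Groups share replicate numbers, and deviations of same-numbered arrays over all clusters had correlations of -0.0702 to 0.21 over the 15 pairs of groups, over 0.1 in 2 of them; over bright clusters the range was -0.191 to 0.569, over 0.1 in 6. The highest were between IFNg with and without silvestrol in total RNA. Over all clusters, DMSO and IFNg arrays had 0.00401 in total and -0.0208 in polysomal RNA. Total and polysomal arrays with silvestrol, the pair tested above, had 0.113 over all clusters and 0.32 over bright clusters. Most pairs lay below 0.1 but not this one. The labels do not say that the numbers pair samples, so the main fit took no pairing. With the replicate number as a block, 8 members were called higher on polysomes under silvestrol and 2 lower with silvestrol against IFNg in total RNA; no other count of calls moved by more than 1.5 times.

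Leaving out each array in turn gave 135 to 582 clusters under the rule, medians of IFNg minus DMSO of -1.53 to -1.0 in total and -1.88 to -1.66 in polysomal RNA, and 2 to 18 and 40 to 139 members called lower. On polysomes under silvestrol the median was -0.39 to -0.32, with 0 to 8 lower and 0 to 6 higher. Silvestrol against IFNg gave 0.11 to 0.22 in total RNA with 0 to 1 lower and 0 higher, and 0.23 to 0.41 in polysomal RNA with 1 to 8 lower and 0 to 13 higher. Silvestrol against DMSO gave -1.38 to -0.72 in total RNA with 14 to 40 lower, and -1.63 to -1.38 in polysomal RNA with 32 to 90 lower. The 40 in polysomal IFNg came without the second DMSO array, and 66 and 55 without the first or second IFNg array. Polysomal minus total RNA was -0.18 to 0.35 with DMSO and -0.45 to -0.29 with IFNg, and the difference between fractions -0.72 to -0.19, with 0 calls. A group left with 1 array is assumed to vary like the others. With 2 arrays a group, the differences of members have wide bounds (median SE of IFNg minus DMSO 0.36 in each fraction). No detection call is available for dim members.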
